A study of Mus musculus with 7 samples.

Results

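The data set holds 4 assays for the muscle miRNAs miR-1 and miR-133, out of 375 miRNA assays run by TaqMan real-time PCR. They are mmu-miR-1, rno-miR-1, mmu-miR-133a and mmu-miR-133b, and they were taken by name alone. The cells were primary myogenic progenitor cells (MPC), the cells that divide after injury of a muscle and then fuse into myotubes. They came from hind limb muscle of C57BL/6J mice and were used at passage 3, with the age and number of the mice not given in the sources used here. Differentiation cells were seeded on plates coated with entactin, collagen IV and laminin, and adhered in growth medium, which is day 0. They then stood in DMEM with horse serum until days 1, 2 and 5. Proliferation cells were kept in growth medium, Ham's F-10 with fetal bovine serum and FGF-2, on type I collagen, and were collected on days 2 and 5. Both media held penicillin and streptomycin. Medium, coating and vessel differ together between the media and cannot be told apart. Differentiation days count from the end of adhesion, so time since seeding may also differ between the media on the same day.

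miR-1 and miR-133 are the classic miRNAs of striated muscle. In mouse, a gene for miR-1 and a gene for miR-133a are made from the same primary transcript, and each of these pairs exists in more than a single copy. miR-133b comes from a different locus. Myogenic factors such as MyoD, myogenin, SRF and MEF2 are known to drive these genes. In cultured myoblasts miR-1 is known to favour differentiation, among other ways through the mRNA of the histone deacetylase HDAC4, and miR-133 is known to act on the mRNA of SRF. Mature miR-133a and miR-133b share their seed and differ at the 3′ end. How far each of the miR-133 assays reads the other's molecules was not tested.

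Sequences are from the RefSeq tables for mouse build GRCm38.p6. The mature strand of miR-133b, from Mir133b (chr1:20682834-20682855, plus strand), is shown because its assay parted from the other 3 late in differentiation. Its seed, bases 2 to 8, is in capitals.
mmu-miR-133b-3p: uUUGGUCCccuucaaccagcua
In the Mir133b hairpin (chr1:20682769-20682887, plus strand, 119 bases), this mature strand, bases 66 to 87, is in capitals.
Mir133b: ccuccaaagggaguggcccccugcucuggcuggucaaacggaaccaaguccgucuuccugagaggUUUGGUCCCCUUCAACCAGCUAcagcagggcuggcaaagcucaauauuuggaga
Mir133b lies inside the non-coding gene Lincmd1 (chr1:20669882-20682958), 12887 bases from its start. Mir1a-1 (chr2:180389048-180389124) and Mir133a-2 (chr2:180398379-180398482) both lie inside the non-coding gene Mir1a-1hg (chr2:180385604-180401802), with 9254 bases between them. Other copies of the miR-1 and miR-133a genes lie elsewhere in the genome, and the assays read the mature product of all copies together.

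The promoters of these host genes are shown because assays for miRNAs encoded in both rose between days 1 and 2 of differentiation. Between days 2 and 5 the rise of mmu-miR-133b, whose gene lies inside Lincmd1, did not pass. Transcription of the host genes was not measured. How much of the miR-1 and miR-133a signal came from the copies in Mir1a-1hg was not tested. Each promoter runs over 300 bases on the plus strand, 250 before the annotated start and 50 after it. Capitals mark E-boxes, the letters CANNTG searched on both strands, to which MyoD and its relatives bind.
Mir1a-1hg, chr2:180385354-180385653: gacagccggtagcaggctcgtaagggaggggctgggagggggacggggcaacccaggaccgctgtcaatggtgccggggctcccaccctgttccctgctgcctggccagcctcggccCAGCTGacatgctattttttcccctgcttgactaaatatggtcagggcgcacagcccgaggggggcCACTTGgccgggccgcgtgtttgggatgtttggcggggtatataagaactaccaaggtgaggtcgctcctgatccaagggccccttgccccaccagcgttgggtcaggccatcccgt
Lincmd1, chr1:20669632-20669931: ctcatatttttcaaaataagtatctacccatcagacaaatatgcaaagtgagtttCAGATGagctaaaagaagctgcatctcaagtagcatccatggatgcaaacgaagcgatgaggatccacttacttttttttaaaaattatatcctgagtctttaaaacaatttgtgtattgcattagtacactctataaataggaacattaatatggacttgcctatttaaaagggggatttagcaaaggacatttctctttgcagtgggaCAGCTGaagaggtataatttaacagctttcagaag
Both promoters held 2 E-boxes and, among them, 1 with the letters CAGCTG. Of 32851 RefSeq promoters of the same length, 72.3% held an E-box and 16.3% held CAGCTG. The Lincmd1 promoter also held 1 match to the MEF2 site, in lower case here, which 3.19% of promoters held, and neither promoter had a match to the CArG box of SRF, which 1.63% held. These matches describe the letters of the windows and are not shown to be bound in these cells.

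The raw data are threshold cycles (Ct), the PCR cycle at which a signal crosses the threshold, in 6 columns, 1 per day, of 4 rows per assay, so n = 4 rows on each day throughout. The 7 deposited samples are pairs of these columns. The labels do not say whether rows are cultures or repeated wells, so that every p-value rests on how far such rows differ, possibly for technical reasons alone. The row numbers used here are positions in the file. All 96 wells of the 4 assays gave a Ct, against 221 of the 375 miRNA assays with a Ct in all 24 rows and 67 with none. Levels are the Ct of MammU6, a small nuclear RNA and the control marked in the files, minus the Ct of the assay in the same row, on a log2 scale where a higher value means more miRNA. A difference of 1 is a 2-fold difference if template doubles in each cycle. MammU6 itself had day means of 12.71 to 12.98 cycles. It was later in row 1 of each differentiation day (13.25 to 13.85) than in the other rows, and in row 2 of both proliferation days (13.61 and 13.64), and these rows often had the highest levels below.

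In differentiation, mmu-miR-1 had levels of -8.46, -9.68, -8.83 and -8.60 in rows 1 to 4 of day 0, and -9.16, -9.60, -7.82 and -7.84 in those of day 1. It had -4.80, -6.06, -5.78 and -5.73 on day 2, and -2.87, -3.76, -4.08 and -3.77 on day 5. Days 0 and 1 overlapped, all rows of day 2 lay above both, and all rows of day 5 lay above day 2. In growth medium its levels were -7.99, -6.42, -7.88 and -7.43 on day 5, and -9.09, -9.41, -9.50 and -9.98 on day 2. Those of day 5 lay above those of day 2, and below every row of differentiation day 2.

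The second assay for this miRNA, rno-miR-1, was designed for the rat sequence, as its prefix says. Its probe sequence was not used here, and how far the pair of assays reads the same molecules was not tested, so they do not count as independent. Its levels were -6.51, -7.97, -7.13 and -6.17 on differentiation day 0, -6.81, -6.78, -7.11 and -5.31 on day 1, -3.48, -4.53, -4.28 and -4.27 on day 2, and -1.78, -2.63, -2.77 and -2.46 on day 5. In proliferation they were -6.30, -4.84, -6.11 and -5.79 on day 5 and -7.38, -7.39, -7.62 and -8.10 on day 2. The rat assay followed the mouse assay over the 6 days, with an earlier Ct in every row.

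mmu-miR-133a had the highest levels of the 4 assays. They were -1.76, -2.67, -2.17 and -1.92 on differentiation day 0, -1.62, -2.09, -1.97 and -1.36 on day 1, 0.63, 0.26, -0.07 and -0.31 on day 2, and 1.89, 1.29, 1.26 and 1.28 on day 5. Day 5 was thus the single day on which all its rows had an earlier Ct than MammU6. In proliferation its levels were -2.35, -0.93, -1.93 and -1.44 on day 5 and -2.23, -2.77, -2.64 and -2.95 on day 2, which overlapped in row 1 of day 5.

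mmu-miR-133b lay below mmu-miR-133a in every row. Its levels were -4.0, -5.11, -5.07 and -4.38 on differentiation day 0, -3.04, -4.18, -4.18 and -3.45 on day 1, -1.40, -2.30, -2.61 and -2.68 on day 2, and -1.35, -2.19, -2.52 and -2.12 on day 5. All rows of day 2 lay above days 0 and 1, while days 2 and 5 overlapped almost wholly. In proliferation its levels were -4.61, -2.70, -4.08 and -3.70 on day 5 and -4.90, -4.46, -5.12 and -5.37 on day 2, with an overlap in row 1 of day 5.

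**Figure D1:**
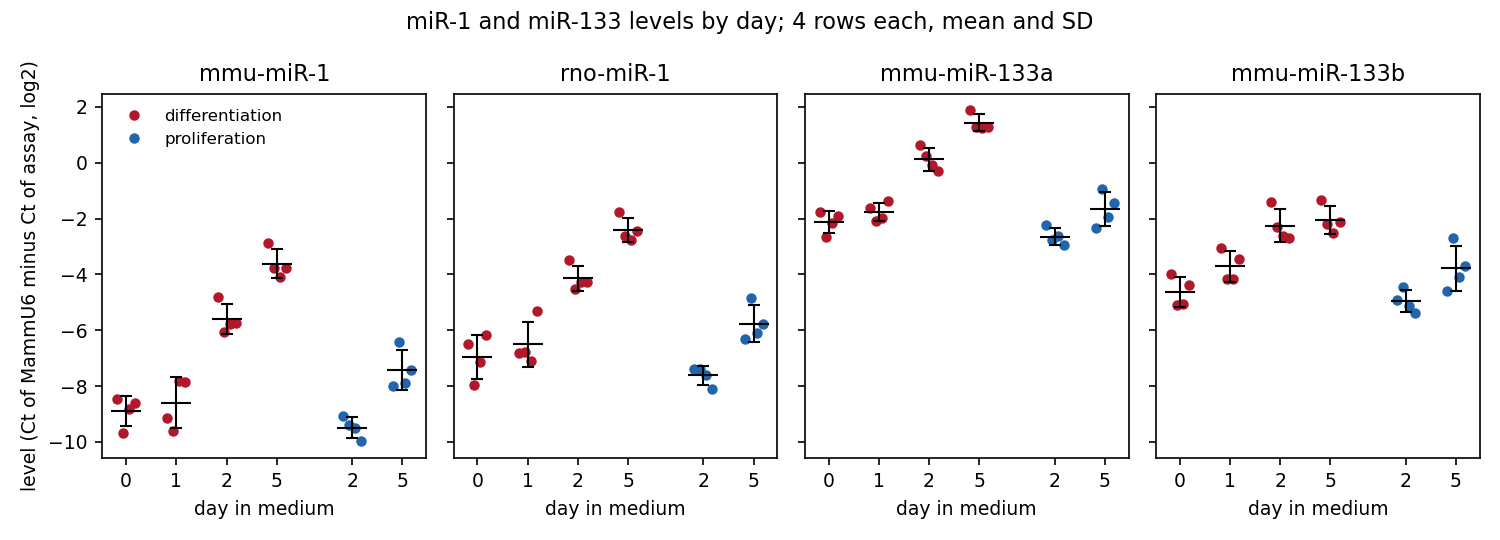
Level of each assay (Ct of MammU6 minus Ct of the assay, log2, y axis) in each of 4 rows by day in medium (x axis), for differentiation (red) and proliferation (blue), with the mean and SD of each day as a bar with whiskers. In differentiation mmu-miR-1 averaged -3.62 on day 5 and -8.89 on day 0, and mmu-miR-133b averaged -2.05 on day 5 and -2.25 on day 2.

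Ordered by mean level, the same 3 days took the ends in all 4 assays: proliferation day 2 was lowest, and differentiation day 2 and then day 5 were highest. Of 20 pairs of neighbouring days in these orders, 8 passed the limma test over all 6 days. The 3 lowest days of mmu-miR-1, and the 4 lowest of the other 3 assays, did not differ beyond their spread from their neighbours among them. All 8 steps that passed lay above these days, and 7 of them ended at differentiation day 2 or day 5. The other was mmu-miR-1 on proliferation day 5, which lay above differentiation day 1, by 1.18 ± 0.44 (SE, limma adjusted p = 0.0392). For rno-miR-1 that step was 0.74 ± 0.43 (limma adjusted p = 0.153), and for mmu-miR-133a it was 0.10 ± 0.33 (limma adjusted p = 0.817). The place of proliferation day 5 depended on the reference. The other controls were also higher against MammU6 on proliferation day 5 than on differentiation day 1. With any of them, their mean or the median miRNA assay as the reference, in fits added after the values were seen, the step of mmu-miR-1 lay at 0.17 to 0.72 and did not pass. Its call was also lost by leaving out row 1 (0.99) or row 2 (0.84) of differentiation day 1, and likewise for row 2 (0.84) or row 4 (1.18) of proliferation day 5. For rno-miR-1 that step passed when row 4 of differentiation day 1 was left out, at 1.14 (limma adjusted p = 0.0336). For mmu-miR-133a the same step turned to -0.91 (limma adjusted p = 0.0373) with snoRNA135, and was negative with each other control, their mean and the median miRNA assay. For mmu-miR-133b, differentiation day 1 lay above proliferation day 5 by 0.77 to 1.06 and passed with snoRNA135, snoRNA202, the mean of the controls and the median miRNA assay, against 0.06 with MammU6. The step of mmu-miR-133b between differentiation days 1 and 2 lost its call in this fit with U87 (0.99) or Y1 (0.97), and at 1.18 to 1.48 when a single row was left out, namely rows 2 and 3 on day 1 and rows 1 and 2 on day 2. That of mmu-miR-133a between days 2 and 5 lost it with snoRNA202, at 0.91 (limma adjusted p = 0.0729). The last 2 days of mmu-miR-133b changed places with snoRNA202 and with the median miRNA assay. The order was read from the same values, so these tests describe it.

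By Ct alone, which depends on the efficiency of each assay as well as on abundance, mmu-miR-133a was among the earliest of all miRNA assays throughout. Its mean Ct ranked 2, 2, 1 and 1 on differentiation days 0, 1, 2 and 5, among 249 to 255 assays with a Ct in at least 3 rows, and 2 and 4 on proliferation days 5 and 2. The earliest other assay was mmu-miR-24 on every day, at 13.13 cycles on differentiation day 5, where mmu-miR-133a had 11.54 ± 0.21 (SD). mmu-miR-133b ranked 12, 9, 3 and 3 in differentiation, and 10 and 14 on proliferation days 5 and 2. mmu-miR-1 moved furthest in this ranking, with 63, 56, 20 and 8 in differentiation and 51 and 76 on proliferation days 5 and 2, while rno-miR-1 had 31, 24, 12 and 4, and 25 and 40.

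The first comparison asks what moved within a day of the change of medium. None of the 4 assays passed on day 1 against day 0 (limma, adjusted p under 0.05 over all 238 assays tested), where 2.1% of all assays passed in either direction. The changes were 0.29 ± 0.44 for mmu-miR-1, 0.44 ± 0.44 for rno-miR-1, 0.37 ± 0.31 for mmu-miR-133a and 0.93 ± 0.39 for mmu-miR-133b, and the last alone had an unadjusted limma p under 0.05, at 0.0298. With another control in the same row, the mean of 4 controls or the median miRNA assay in place of MammU6, mmu-miR-133b passed in 5 of 6 cases, at 0.61 to 1.02, and Y1 was the exception.

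By day 2 all 4 assays had risen over day 0, and 28.8% of all 243 assays tested rose. mmu-miR-1 averaged -5.59 ± 0.55 on day 2 and -8.89 ± 0.55 on day 0 (SD), a change of 3.30 ± 0.45 (SE, limma adjusted p = 5.47e-05) or 9.85-fold. mmu-miR-133a rose by 2.26 ± 0.30 (4.78-fold) and mmu-miR-133b by 2.39 ± 0.39 (5.25-fold). rno-miR-1 rose by 2.81 ± 0.44, or 6.99-fold. In each assay all rows of day 2 lay above all rows of day 0, as in 25.9% of the assays with 4 rows on both days. The median of all tested assays was 0.66.

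Most of this rise fell between days 1 and 2. In this step all 4 assays rose, against 12.9% of all assays, with no overlap of rows in any of them, as in 17.4% of assays, by 3.01 ± 0.44 for mmu-miR-1, 2.36 ± 0.44 for rno-miR-1, 1.89 ± 0.31 for mmu-miR-133a and 1.47 ± 0.39 for mmu-miR-133b. The call of mmu-miR-133b was lost without row 1 of day 2, at 1.18 (limma adjusted p = 0.0779), and without row 2 or row 3 of day 1, at 1.31 in each case. With Y1 as the control, mmu-miR-1 alone passed.

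Over the whole course, day 5 against day 0, all 4 assays rose, and so did 42.3% of the 246 assays tested, with a median of 0.89. mmu-miR-1 rose by 5.27 ± 0.45 (SE, limma adjusted p = 9.25e-08), or 38.7-fold, and ranked 3rd among all changes. rno-miR-1 rose by 4.54 ± 0.44, or 23.2-fold. mmu-miR-133a rose by 3.56 ± 0.30, or 11.8-fold, and mmu-miR-133b by 2.60 ± 0.39 (limma adjusted p = 5.59e-05), or 6.04-fold. In each of the 4, every row of day 5 lay above every row of day 0, as in 31.9% of assays. The authors' deposited table gives folds of 38.7 for mmu-miR-1, 11.8 for mmu-miR-133a and 6.04 for mmu-miR-133b in this comparison. All 4 stayed called with any other control, with the median miRNA assay and without any 1 row. Against the median miRNA assay the rises were 4.03, 3.30, 2.32 and 1.36 in the order above. In this and every later comparison of these bulk cultures, more RNA per cell and more cells of a type cannot be told apart.

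Against day 1, day 5 was higher in all 4 assays, as in 33.3% of all assays, with no overlap of rows in any of the 4, as in 31.9% of assays, by 4.99 ± 0.45 for mmu-miR-1, 4.09 ± 0.44 for rno-miR-1, 3.19 ± 0.30 for mmu-miR-133a and 1.67 ± 0.39 for mmu-miR-133b.

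The step between days 2 and 5 separated the members. In this step 3 of the 4 rose, against 9.31% of the 247 assays tested. mmu-miR-1 rose by 1.97 ± 0.45 (SE, limma adjusted p = 0.00627), rno-miR-1 by 1.73 ± 0.45 (limma adjusted p = 0.0144) and mmu-miR-133a by 1.30 ± 0.30 (limma adjusted p = 0.00687), and in these 3 the rows of the days did not overlap, as in 13.2% of assays. mmu-miR-133b lay at 0.20 ± 0.39 (limma adjusted p = 0.835), close to the median of all assays, 0.16. It averaged -2.05 ± 0.50 on day 5 and -2.25 ± 0.59 on day 2 (SD). Its sign turned with snoRNA202 as the control (-0.19), with the median miRNA assay (-0.085) and without row 1 of day 5 (-0.0292). Against MammU6, mmu-miR-133b had by day 2 gone 92.2% of its day 5 change on the log2 scale. There mmu-miR-1 had gone 62.6%, rno-miR-1 61.9% and mmu-miR-133a 63.4%. The share of mmu-miR-133b depended on the reference: with snoRNA202 or the median miRNA assay its mean level was higher on day 2 than on day 5.

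**Figure D2:**
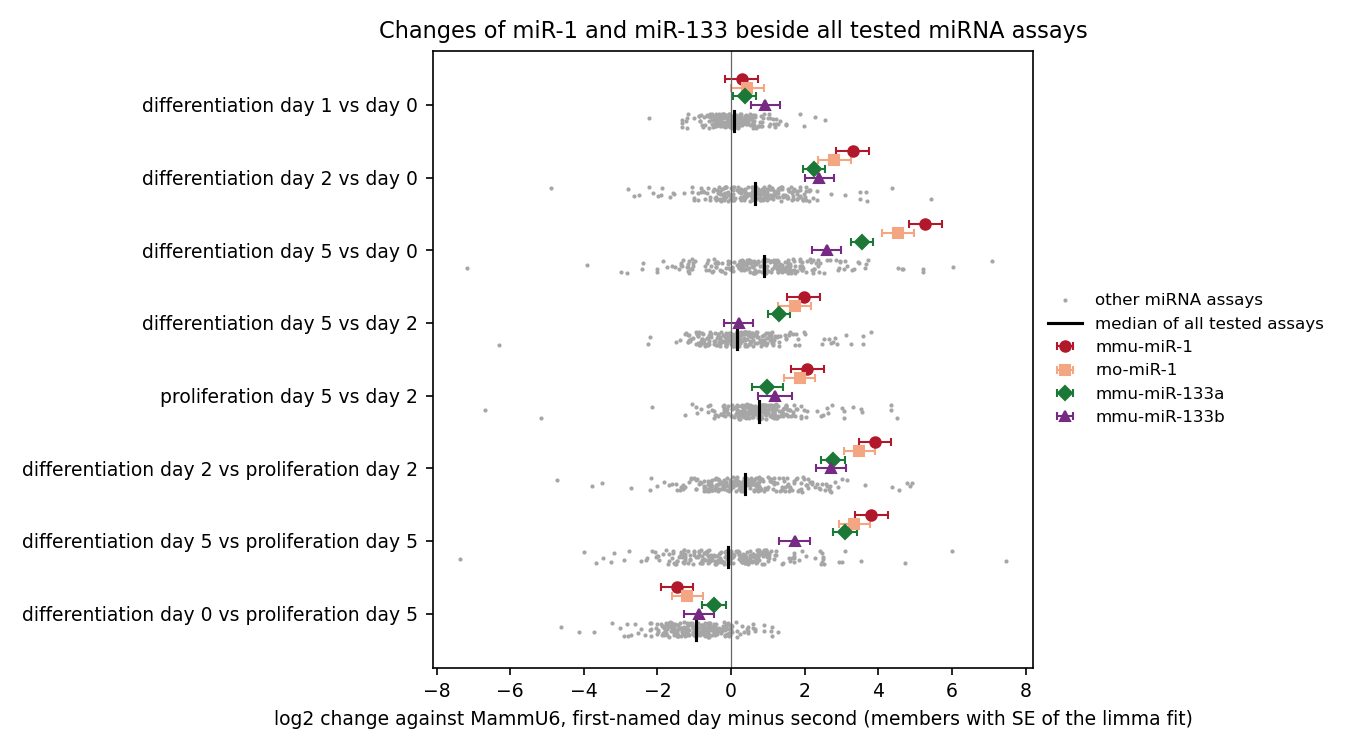
Log2 change against MammU6 (x axis) in 8 comparisons (y axis), as the first-named day minus the second. Coloured symbols are the 4 assays with their limma SE, grey dots are all other tested miRNA assays, and the black tick is the median of all tested assays; mmu-miR-133b lies at 0.20, near that median of 0.16, on differentiation day 5 against day 2, while mmu-miR-1 lies at 1.97.

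Whether the members changed by unequal amounts was tested within rows, with a member in place of MammU6 as the reference, which takes every control out of the comparison. In these fits most assays fall relative to a member that rises, so the share of all assays called is high, and the size of the difference carries the result. Where that share is highest, adjustment changes a p-value little. For mmu-miR-133b relative to mmu-miR-1 on day 2 against day 0, the limma p was 0.0456 unadjusted and 0.0489 adjusted. All assays in a fit also share the Ct values of its reference assay. Relative to mmu-miR-1, 2 of the other 3 members were lower on day 5 against day 0, as were 96.3% of all assays. mmu-miR-133a lay at -1.71 ± 0.37 (SE, limma adjusted p = 0.000251) and mmu-miR-133b at -2.68 ± 0.42 (limma adjusted p = 8.35e-06). rno-miR-1 lay at -0.74 ± 0.38 (limma adjusted p = 0.0710). Thus the rise read by mmu-miR-1 exceeded that of both miR-133 assays, and a difference between the pair of miR-1 assays did not pass. No fit was run relative to rno-miR-1. Its smaller rise against MammU6, 4.54, lay closer to the 3.56 of mmu-miR-133a and the 2.60 of mmu-miR-133b. How far the assays differ in PCR efficiency was not tested.

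On day 2 against day 0, mmu-miR-133a lay at -1.04 ± 0.37 relative to mmu-miR-1 (limma adjusted p = 0.0130), and mmu-miR-133b at -0.91 ± 0.42 (limma adjusted p = 0.0489), and 93% of all assays were lower. The call of mmu-miR-133b was lost when any 1 of 6 rows was left out, at -1.07 to -0.80 over all such fits. Against MammU6, rno-miR-1 rose by 2.81 in this comparison, nearer than mmu-miR-1 to the 2.26 of mmu-miR-133a and the 2.39 of mmu-miR-133b. In the later step, day 5 against day 2, mmu-miR-133b was lower relative to mmu-miR-1 by 1.77 on the log2 scale, at -1.77 ± 0.42 (limma adjusted p = 0.00126), with 78.5% of all assays lower. mmu-miR-133a lay at -0.67 ± 0.37 (limma adjusted p = 0.102) and rno-miR-1 at -0.24 ± 0.38 (limma adjusted p = 0.557).

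The miR-133 assays parted from each other in the same step. mmu-miR-133b relative to mmu-miR-133a lay at -1.10 ± 0.22 on day 5 against day 2 (SE, limma adjusted p = 0.000615), where 63.8% of all assays were lower relative to mmu-miR-133a. It lay at 0.14 ± 0.22 on day 2 against day 0 (limma adjusted p = 0.583; 77.7% of assays lower), and at -0.97 ± 0.22 on day 5 against day 0 (limma adjusted p = 0.000756; 86.9% lower). The difference of day 5 against day 2 held in all 13 alternative fits, at -1.18 to -0.99 with 1 row left out.

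The raw Ct differences show the same without any model. mmu-miR-133b was later than mmu-miR-133a by 3.24, 3.40, 3.48 and 3.78 cycles in the rows of differentiation day 5, in rising order. In the other 20 rows the difference was 1.42 to 2.90 cycles, so day 5 stood apart from all other days. The difference averaged 2.51 ± 0.28 on day 0, 1.95 ± 0.36 on day 1, 2.38 ± 0.25 on day 2 and 3.48 ± 0.23 on day 5 (SD), and 2.11 ± 0.23 and 2.32 ± 0.43 on proliferation days 5 and 2. It was also smaller in every row of differentiation day 1 (1.42 to 2.21) than in every row of day 0 (2.24 to 2.90). That step was not fitted for this pair.

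mmu-miR-1 was later than mmu-miR-133a in every row. The mean difference was 6.76 ± 0.17 cycles on differentiation day 0, 6.85 ± 0.83 on day 1, 5.72 ± 0.42 on day 2 and 5.05 ± 0.24 on day 5 (SD). In proliferation it was 5.77 ± 0.24 on day 5 and 6.85 ± 0.16 on day 2. Against mmu-miR-133b, mmu-miR-1 was later by 1.58 cycles on differentiation day 5, where the 4 rows spanned 1.52 to 1.65, and by 4.25 on day 0.

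The mouse miR-1 assay was later than the rat assay in all 24 rows, by 0.71 to 2.82 cycles and by 1.71 on average. The mean gap was 1.95 ± 0.34 on differentiation day 0, 2.10 ± 0.95 on day 1, 1.45 ± 0.09 on day 2 and 1.21 ± 0.12 on day 5, and 1.67 ± 0.08 and 1.87 ± 0.13 on proliferation days 5 and 2 (SD). Day 1 held both the narrowest and the widest gap of all rows. Rows spanned 1.70 to 2.43 on differentiation day 0, 1.32 to 1.53 on day 2 and 1.09 to 1.31 on day 5, so these days did not overlap. The spread of day 1 also enters the SE of the fits on differentiation days, where this difference did not pass.

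**Figure D3:**
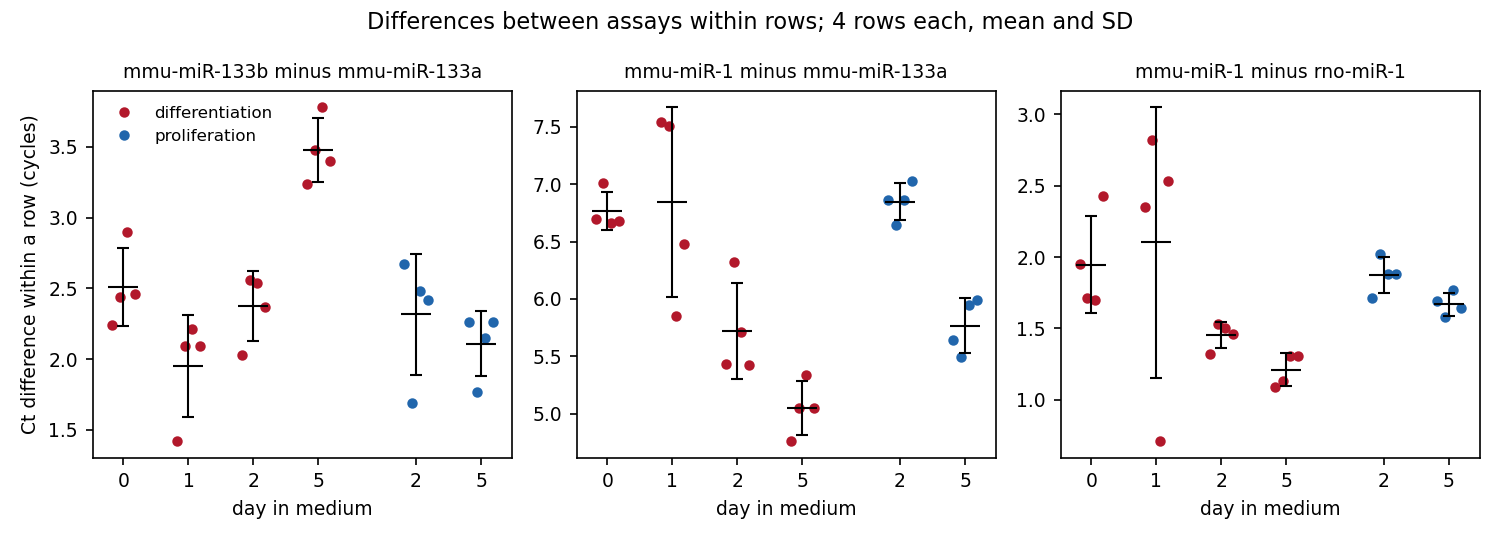
Ct difference between a pair of assays within each row (cycles, y axis) by day in medium (x axis), for differentiation (red) and proliferation (blue), with mean and SD; each panel has its own scale. For mmu-miR-133b minus mmu-miR-133a the 4 rows of differentiation day 5 lie at 3.24 to 3.78 cycles, above the other 20 rows.

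Growth medium alone was the next comparison, day 5 against day 2 of proliferation. Here 2 of the 4 assays rose, against 7.02% of the 242 assays tested. mmu-miR-1 averaged -7.43 ± 0.72 on day 5 and -9.50 ± 0.37 on day 2 (SD), a change of 2.07 ± 0.45 (SE, limma adjusted p = 0.0155) or 4.18-fold. rno-miR-1 changed by 1.86 ± 0.43 (limma adjusted p = 0.0233). Rows of the 2 days did not overlap in either, as in 11.6% of assays. mmu-miR-133a lay at 0.99 ± 0.42 (limma adjusted p = 0.136) and mmu-miR-133b at 1.19 ± 0.47 (limma adjusted p = 0.121), with the median of all assays at 0.75. mmu-miR-133b passed at the same value with the day mean of MammU6 as the reference (limma adjusted p = 0.0224), and at 1.36 without row 2 of day 2 (limma adjusted p = 0.0415). The other controls also moved against MammU6 here, by 0.78 for snoRNA135, 0.94 for snoRNA202, 0.05 for U87 and 0.61 for Y1. The miR-1 calls were lost with snoRNA135, snoRNA202, Y1 or the median miRNA assay as the reference, where mmu-miR-1 lay at 1.13 to 1.46, and held with U87 and with the mean of the 4 controls. Without row 2 of day 5, the row of late MammU6, mmu-miR-1 stood at 1.73 (limma adjusted p = 0.0485) and rno-miR-1 at 1.56 (limma adjusted p = 0.0542). Without row 4 of day 2, rno-miR-1 stood at 1.70 (limma adjusted p = 0.0558).

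Relative to mmu-miR-1 in the same row, in fits added after the values were seen, mmu-miR-133a was lower on day 5 against day 2 of proliferation, at -1.08 ± 0.36 (limma adjusted p = 0.0277), with 55.6% of all assays lower. This call was lost when any 1 of 5 rows was left out, at -1.15 to -0.99 over all such fits. mmu-miR-133b lay at -0.88 ± 0.37 (limma adjusted p = 0.0591). Relative to mmu-miR-133a, mmu-miR-133b lay at 0.21 ± 0.44 (limma adjusted p = 0.900), where 0.415% of all assays were lower.

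Between media on the same day, all 4 assays were higher in differentiation. On day 2 the differences were 3.90 ± 0.44 for mmu-miR-1 (limma adjusted p = 6.70e-07), or 15.0-fold, 3.48 ± 0.43 for rno-miR-1, 2.78 ± 0.33 for mmu-miR-133a and 2.72 ± 0.41 for mmu-miR-133b, against 23.7% of 241 assays higher. On day 5 they were 3.81 ± 0.44 for mmu-miR-1 (limma adjusted p = 7.82e-07), 3.35 ± 0.43 for rno-miR-1, 3.09 ± 0.32 for mmu-miR-133a and 1.73 ± 0.41 for mmu-miR-133b (limma adjusted p = 0.00267), against 11.8% of 246 assays higher. On both days, all rows in differentiation lay above all rows in proliferation in each of the 4 assays, as in 22% and 13.4% of assays. These calls held with every other control, with the median miRNA assay and without any 1 row. With each assay's own variance alone, mmu-miR-133b on day 5 did not pass (adjusted p = 0.0664 from that model).

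Relative to mmu-miR-1 in the same row, again in fits added after the values were seen, both miR-133 assays were lower in differentiation than in proliferation on day 2, at -1.13 ± 0.35 for mmu-miR-133a (SE, limma adjusted p = 0.00367) and -1.19 ± 0.39 for mmu-miR-133b (limma adjusted p = 0.00608), with 93.8% of all assays lower. On day 5, mmu-miR-133b lay at -2.08 ± 0.39 (limma adjusted p = 1.97e-05), with 95.9% of all assays lower. mmu-miR-133a lay at -0.72 ± 0.34 (limma adjusted p = 0.0459), a call lost when any 1 of 6 rows was left out, at -0.81 to -0.62 over all such fits. rno-miR-1 lay at -0.42 ± 0.35 on day 2 and -0.46 ± 0.34 on day 5 and did not pass. The change between days 2 and 5 in differentiation minus that in proliferation, relative to mmu-miR-1, passed for none of the 3 in limma, nor at an unadjusted p under 0.05, and 3.72% of all assays were lower. It lay at 0.41 ± 0.49 for mmu-miR-133a and -0.90 ± 0.55 for mmu-miR-133b.

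The miR-133 assays again differed on day 5 only. mmu-miR-133b relative to mmu-miR-133a lay at -1.37 ± 0.26 in differentiation against proliferation on day 5 (SE, limma adjusted p = 3.71e-05; 91.4% of assays lower), and at -0.06 ± 0.27 on day 2 (limma adjusted p = 0.838; 83.8% lower). The change between days 2 and 5 in differentiation minus that in proliferation was -1.31 ± 0.37 for this ratio (limma adjusted p = 0.0198; 19.8% lower). Without row 3 of differentiation day 5 it was -1.20 (limma adjusted p = 0.0513). These fits were added after the values were seen.

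Against MammU6, the same test of the change between days 2 and 5 in differentiation minus that in proliferation passed for none of the 4 assays in limma, nor at an unadjusted p under 0.05, and for 7.41% of 243 assays in either direction. The values were -0.09 ± 0.62 for mmu-miR-1, -0.13 ± 0.61 for rno-miR-1, 0.32 ± 0.46 for mmu-miR-133a and -0.99 ± 0.58 for mmu-miR-133b (limma adjusted p = 0.303). The sign for both miR-1 assays turned with snoRNA135, snoRNA202, Y1, the mean of the 4 controls and the median miRNA assay, and not with U87.

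Cells of differentiation day 0 were also in growth medium, after a day of adhesion. Against proliferation day 2 none of the 4 assays passed in limma, nor at an unadjusted p under 0.05, at 0.60 ± 0.44 for mmu-miR-1, 0.68 ± 0.43 for rno-miR-1, 0.52 ± 0.32 for mmu-miR-133a and 0.32 ± 0.41 for mmu-miR-133b, and 1.25% of 240 assays were higher. With U87 as the control all 4 passed, at 1.18 to 1.53. U87 was lower on differentiation day 0, by 0.85 against MammU6. Against proliferation day 5, mmu-miR-1 was lower by 1.46 on the log2 scale, at -1.46 ± 0.44 (limma adjusted p = 0.0161), and rno-miR-1 lay at -1.19 ± 0.43 (limma adjusted p = 0.0341), while mmu-miR-133a and mmu-miR-133b lay at -0.47 ± 0.32 and -0.87 ± 0.41 and did not pass. Thus 2 of 4 were lower, against 36.9% of all 241 assays, with the median of all at -0.94. The other controls all lay 0.80 to 0.94 lower against MammU6 on differentiation day 0, and with any of them as the reference neither miR-1 assay passed. There mmu-miR-133a turned to 0.33 to 0.47. Neither miR-1 assay passed without row 2 of differentiation day 0, at -1.20 for mmu-miR-1, or without row 2 of proliferation day 5, at -1.13. rno-miR-1 did not pass without row 3 of differentiation day 0, at -1.12. mmu-miR-133b passed at the same value with the day mean of MammU6 (limma adjusted p = 0.0154), at -1.08 without row 1 of differentiation day 0 (limma adjusted p = 0.0401) and at -1.15 without row 1 of proliferation day 5 (limma adjusted p = 0.0461).

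**Figure D4:**
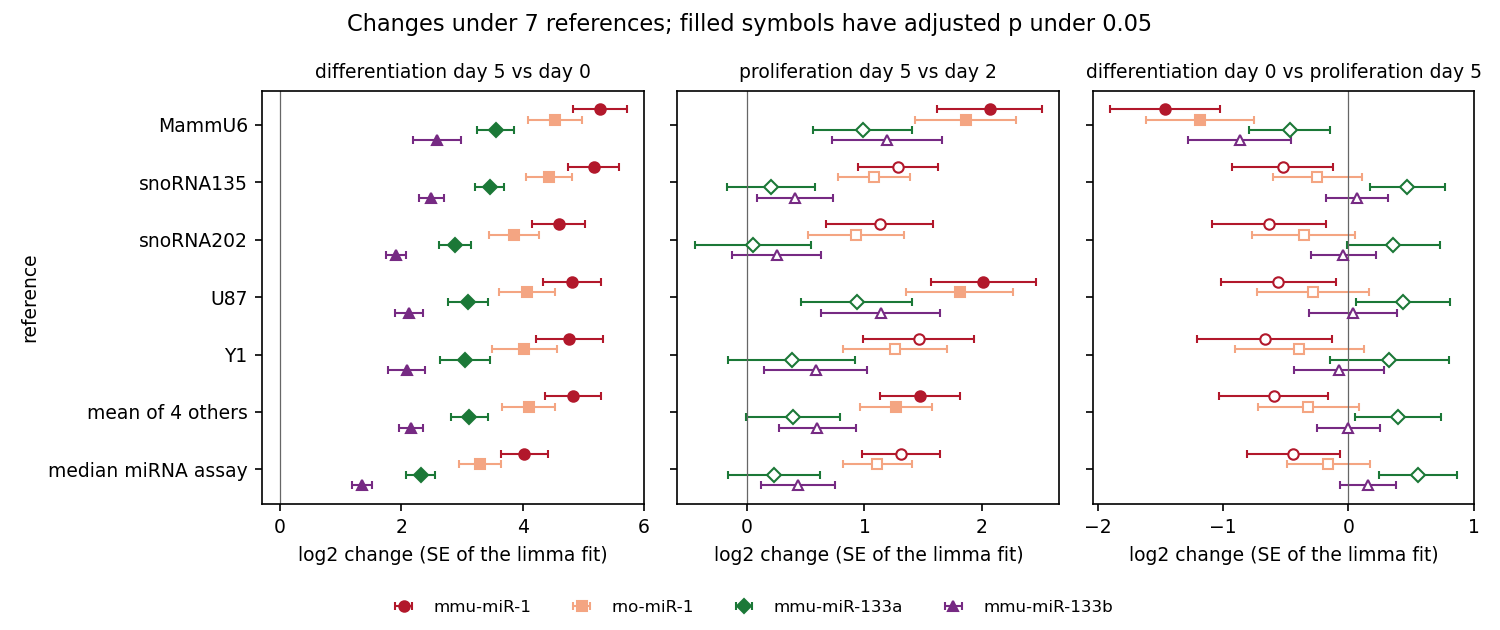
Log2 change (x axis, with its SE by limma) of the 4 assays under 7 references (y axis) in 3 comparisons; filled symbols have an adjusted p under 0.05 over all tested assays and open symbols do not. All symbols are filled for differentiation day 5 against day 0, while in proliferation day 5 against day 2 those of miR-1 are filled under MammU6, U87 and the mean of 4 controls.

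Other miRNAs of muscle were read from a list of 4. miR-499 and miR-208b lie in introns of myosin heavy chain genes, as does miR-208 (now miR-208a), and miR-486 lies in the gene Ank1. Their mature sequences are shown because miR-208 and miR-208b share a seed, bases 2 to 8 in capitals, with strands from Mir499 (chr2:155622893-155622913, plus strand), Mir208a (chr14:54949072-54949093, minus strand) and Mir208b (chr14:54975710-54975731, minus strand).
mmu-miR-499-5p: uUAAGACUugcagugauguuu
mmu-miR-208a-3p: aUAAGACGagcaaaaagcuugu
mmu-miR-208b-3p: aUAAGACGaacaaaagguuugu
On differentiation day 5 against day 0, 2 of the 3 tested members rose, beside 42.3% of all assays. mmu-miR-499 had levels of -11.68, -12.44, -14.17 and -13.38 in the rows of day 5, against -18.15, -21.95, -20.53 and -19.35 on day 0, with no overlap. It rose by 7.08 ± 0.76 (SE, limma adjusted p = 1.60e-06), the largest change of all tested assays, and mmu-miR-486 by 4.54 ± 0.48. Both started from late wells on day 0, at Ct 31.71 to 34.64 for mmu-miR-499 and 30.96 to 34.23 for mmu-miR-486. mmu-miR-208b lay at 1.05 ± 0.45 (limma adjusted p = 0.0593). mmu-miR-208, known from heart, gave a Ct in 1 row each of differentiation days 2 and 5 and of proliferation day 2, and in no other row.

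In proliferation, day 5 against day 2, all 3 tested members of that list rose, beside 7.02% of all assays and with the other controls at 0.0525 to 0.94, mmu-miR-499 by 4.33 ± 0.64 (limma adjusted p = 0.00242), mmu-miR-208b by 3.57 ± 0.53 and mmu-miR-486 by 3.31 ± 0.66. Wells of proliferation day 2 were late, at Ct 31.12 to 34.23 for mmu-miR-499, 31.33 to 34.41 for mmu-miR-208b and 32.80 to 34.54 for mmu-miR-486. mmu-miR-208b had levels of -16.59, -16.10, -16.46 and -16.87 on day 5 against -18.90, -20.80, -19.42 and -21.17 on day 2. Its change between days 2 and 5 was smaller in differentiation than in proliferation, with a difference of -3.45 ± 0.69 (SE, limma adjusted p = 0.00362). In differentiation against proliferation on day 5, mmu-miR-499 was higher by 2.94 ± 0.76 and mmu-miR-486 by 2.51 ± 0.59, while mmu-miR-208b lay at -0.54 ± 0.49 (limma adjusted p = 0.432).

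Markers of other cells the cultures could hold were counted beside the rise of the 4 assays on differentiation day 5 against day 0. In this comparison 42.3% of all assays were higher and 9.76% lower, with a median change of 0.89. None of 5 fibroblast and smooth muscle markers, 2 endothelial markers or 3 tested epithelial markers passed in limma, and at an unadjusted p under 0.05 only the 2 endothelial ones did, at 0.86 and 0.87, close to that median. The fibroblast and smooth muscle list summed to 2.20% to 4.97% of MammU6 on day 5 and 1.90% to 4.87% on day 0. The endothelial list summed to 0.115% to 0.212% on day 5 and 0.0538% to 0.130% on day 0, and the epithelial list to 0.0239% to 0.0422% on day 5 and 0.0359% to 0.0698% on day 0. Of 5 tested blood markers 1 was lower, mmu-miR-155, at -1.16 ± 0.34. The 6 blood markers on the plate summed to 0.371% to 0.575% of MammU6 on day 5 and 0.627% to 1.24% on day 0. Of 3 tested neuron markers, mmu-miR-9 (3.28 ± 0.42) and mmu-miR-128a (3.11 ± 0.41) rose, and mmu-miR-137 did not pass. The neuron list summed to 0.339% to 0.762% of MammU6 on day 5 and 0.0363% to 0.0834% on day 0. Another member of this list, mmu-miR-124, had too few wells with a Ct to be tested. It gave a Ct in 1 row of day 5, at 39.9, and in 2 rows of day 0, at 33.84 and 39.51. In proliferation, mmu-miR-124 gave a Ct in 3 rows of day 2, at 25.93 to 34.93, and in 3 rows of day 5, at 33.46 to 38.56. mmu-miR-429, of epithelium, gave no Ct, and mmu-miR-122, of liver, gave none on day 0 and 38.01 or later on day 5. On day 5 against day 1, 33.3% of all assays were higher. There 2 of 2 endothelial, 1 of 3 tested epithelial, 1 of 5 tested blood and 2 of 3 tested neuron markers were higher. No fibroblast and smooth muscle marker passed there, and no marker of these lists was lower. The part of other cells in the rises was not tested.

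The assays whose profile over the 6 day means was nearest to a member's were ranked by the root mean square difference of the centred means, over 236 other assays. The points share MammU6, which cancels in this distance. Nearest to mmu-miR-133a were mmu-miR-139-5p (0.208) and mmu-miR-128a (0.243), then mmu-miR-339-3p, mmu-miR-339-5p and rno-miR-339-3p (0.488 to 0.510). Pearson's r over the 6 means was 0.99 for the first pair. mmu-miR-139-5p averaged -9.80, -9.37, -7.66 and -6.32 on differentiation days 0, 1, 2 and 5, and -8.82 and -10.24 on proliferation days 5 and 2. It rose again between days 2 and 5, as mmu-miR-133a did, and not as mmu-miR-133b did. This assay and the nearest ones below were picked over these same 6 means, so steps shared with their member follow from the choice.

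Nearest to mmu-miR-133b were mmu-miR-544 (0.206, r = 0.99), mmu-miR-501-3p (0.269), rno-miR-532-5p (0.287), mmu-miR-675-3p (0.296) and mmu-miR-128a (0.338). mmu-miR-544 averaged -17.04, -16.39, -15.09 and -15.08 on differentiation days 0, 1, 2 and 5, with the same level on the last 2 days. Nearest to mmu-miR-1 were mmu-miR-486 (0.636, r = 0.95) and mmu-miR-139-5p (0.733, r = 1.00), with mmu-miR-339-5p, mmu-miR-128a and mmu-miR-10b at 0.816 to 0.923. By the same measure mmu-miR-133a lay 0.693 from mmu-miR-1, and mmu-miR-133b lay 1.09 from it and 0.490 from mmu-miR-133a.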

How the data were processed

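TaqMan real-time PCR was run on an Applied Biosystems 7900HT with 40 cycles, from total RNA extracted with TRIzol, per the labels. The deposited values are raw threshold cycles, not normalized, and undetermined wells carry no value, per the file headers. A further table deposited by the authors holds a score per assay and pair of days. It is a signed fold: where assays were in both (228 in most comparisons), it equalled the fold computed here from MammU6 within 0.01 on the log2 scale, with the proliferation pair given as day 2 over day 5. Software and threshold settings are not given in the sources used here. The 8 repeated day columns were identical and were used once.

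The Ct of each assay was subtracted from that of MammU6 in its row. An assay was tested between days with a Ct in at least 3 of 4 rows of both and a mean Ct under 35 on at least 1. Differentiation days entered 1 fit and proliferation days another, and comparisons between media and the order of days a fit of all 6 (lmFit and eBayes, limma 3.58.1, R 4.3.3). Tests were two-sided, with Benjamini-Hochberg adjustment over all miRNA assays tested and a threshold of 0.05. The script was tested on simulated data with a constant MammU6 and independent noise in each well. Error of the reference shared by all assays of a row was not simulated. Fits relative to mmu-miR-1 or mmu-miR-133a that involve proliferation days were added after the values were seen. The number of rows limits the precision.

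The members and lists were chosen with earlier results of these data known. Named assays are the 4 members, the muscle list, the controls, the 5 assays nearest to mmu-miR-1, mmu-miR-133a and mmu-miR-133b, and examples from the marker lists, which were chosen after their values were seen. Marker lists held 6 fibroblast and smooth muscle, 2 endothelial, 7 blood, 7 epithelial, 4 neuron and 1 liver names, of which 5, 2, 6, 7, 4 and 1 were on the plate. Alternatives were other references (each other control, their mean, the day mean of MammU6, the median miRNA assay), other limits on Ct and rows, undetermined wells set to 40, a threshold of 0.01, row position as a block, a test with each assay's own variance, a fit on only the days compared, and each row left out in turn. Figures were drawn with matplotlib 3.10.9.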

Additional observations from a re-analysis of the deposited data

Results flagged for a closer look

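In mmu-miR-133a on differentiation day 5, row 1 lay apart from the others, at a level of 1.89 against 1.26 to 1.29 in the other 3 rows. The gap between row 1 and the nearest row was wider than the limit set for 4 values. This was 1 of 24 groups of an assay and a day that were examined, and chance gives about 1 in 20. MammU6 in this row was late, at 13.69 cycles, against 12.58 to 12.87 in the other rows of the day. Without row 1, the rise of mmu-miR-133a on day 5 against day 0 was 3.41 (limma adjusted p = 6.21e-07), and on day 5 against day 2 it was 1.15 (limma adjusted p = 0.0245).

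mmu-miR-208b changed by unequal amounts in the 2 media between days 2 and 5, with a difference of -3.445 on the log2 scale, by a test of the difference itself (limma adjusted p = 0.00362). It lay at 0.12 ± 0.45 in differentiation and at 3.57 ± 0.53 in proliferation (SE). Its wells of proliferation day 2 were late, at Ct 31.33 to 34.41.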

How the results depend on the processing

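Day 2 and day 5 against day 0, day 5 against days 1 and 2, and the differences between media on days 2 and 5 kept the count of members called within 1.5 times, under every alternative. Within that limit, day 5 against day 2 gave 2 in place of 3 at a threshold of 0.01, where rno-miR-1 was lost. Differentiation against proliferation on day 5 gave 3 in place of 4 without a shared variance, where mmu-miR-133b was lost. Elsewhere the count moved further, and the cause was not tested. On differentiation day 1 against day 0 it was 1 in place of 0 with the median miRNA assay, snoRNA135, snoRNA202, U87, the mean of the controls or the row position as a block, each time for mmu-miR-133b. On day 2 against day 1 it was 1 with Y1 and 2 without a shared variance, in place of 4. In proliferation it was 0 in place of 2 with the median miRNA assay, snoRNA135, snoRNA202, Y1, a threshold of 0.01 or no shared variance, 3 with the day mean of MammU6 and, for mmu-miR-133b at 1.19, with the row position as a block (limma adjusted p = 0.0283), and 1 to 3 with a row left out (1 without row 2 of day 5, and 1 without row 4 of day 2). For differentiation day 0 against proliferation day 2 it was 4 in place of 0 with U87. For differentiation day 0 against proliferation day 5 it was 0 in place of 2 with each other reference except the day mean of MammU6, at 0.01 and without a shared variance, 3 with that day mean, 1 in a fit on only the days compared, and 0 to 3 with a row left out (0 without row 2 of either day, 1 without row 3 of differentiation day 0).

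Of the 20 steps between neighbouring days, 6 to 10 passed with another reference and 6 to 9 with a row left out, in place of 8. For the difference between media in the change between days 2 and 5, the row position as a block gave 1 call in place of 0 (mmu-miR-133b, -0.99, limma adjusted p = 0.0241). Rows of the same position correlated in their deviations by 0.03 to 0.65 over 24 pairs in differentiation and by 0.25 to 0.38 over 4 pairs in proliferation, but position is no label, so rows were not paired. Relative to mmu-miR-1, day 2 against day 0 gave 1 call in place of 2 with at least 2 rows, 0 at 0.01, and 1 to 2 with a row left out. In proliferation that count was 0 in place of 1 with the block and at 0.01, and 0 to 1 with a row left out. In differentiation against proliferation on day 5 it was 1 in place of 2 with a mean Ct under 32 on both days, with the block and at 0.01, and 1 to 2 with a row left out. The difference between media for mmu-miR-133b relative to mmu-miR-133a gave 0 in place of 1 at 0.01, and 0 to 1 with a row left out.

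Signs of changes turned only for values that had not passed. mmu-miR-1 on day 1 against day 0 lay at -0.03 with the median miRNA assay and -0.0525 with Y1. mmu-miR-133b on day 5 against day 2 lay at -0.085 with the median miRNA assay and -0.19 with snoRNA202, and at -0.0292 to 0.49 with a row left out. For differentiation day 0 against proliferation day 5, mmu-miR-133a lay at 0.56 with the median miRNA assay, 0.47 with snoRNA135, 0.36 with snoRNA202, 0.44 with U87, 0.33 with Y1 and 0.40 with the mean of the controls, and mmu-miR-133b at 0.16 with the median miRNA assay, 0.07 with snoRNA135 and 0.0375 with U87. For the difference between media in the change between days 2 and 5, mmu-miR-1 and rno-miR-1 lay at 0.37 and 0.33 with the median miRNA assay, 0.71 and 0.67 with snoRNA135, 0.45 and 0.41 with snoRNA202, 0.85 and 0.81 with Y1, and 0.47 and 0.43 with the mean of the controls. With a row left out they ranged over -0.34 to 0.24 and -0.34 to 0.17. Relative to mmu-miR-1, rno-miR-1 in that difference ranged over -0.0892 to 0.0142. mmu-miR-133b relative to mmu-miR-133a in differentiation against proliferation on day 2 ranged over -0.18 to 0.15, in each case with a row left out.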
